A study of Mus musculus with 9 samples.

Results

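The let-7 family of microRNAs (miRNAs) was followed in extracellular vesicles (EVs) from the airways of mice exposed to ozone (O3). Members were taken by name: each row of the deposited table whose name, without its species prefix and ignoring case, starts with let-7, which covers let-7a, let-7b, let-7c, let-7d, let-7e, let-7f, let-7g and let-7i with their genomic copies, both arms of the hairpin and isomiRs. Of the 1308 entries in the table, 103 were let-7: 11 mature entries of the 5p arm, 9 mature entries of the 3p arm and 83 isomiRs, which are reads of the same arm whose 5′ end starts at another base. No let-7g-3p entry without a shift was among them.

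The study asked how inhaled O3 alters the miRNA cargo of EVs in bronchoalveolar lavage fluid (BALF). Female C57BL/6J mice, aged 8 to 10 weeks, breathed filtered air (FA), 1 ppm O3 or 2 ppm O3 for 3 h, and BALF was collected 21 h later. No group carried a named transgene or deletion, and each sequenced sample was EV RNA from a pool of BALF, with 3 pools per exposure, of 4 mice each in FA and of 3 mice each after O3. Pool size therefore changed with O3 and cannot be told apart from it, nor can each O3 concentration from the single exposure session in which it was given. Pools are numbered 1 to 3 within an exposure only as names.

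Mature let-7 is cut from a hairpin precursor by Drosha and Dicer, loaded into Argonaute and pairs with target mRNAs mainly through its seed, the bases just inside its 5′ end. The family was first described in worms, where it times development, is conserved across animals, and in mammals represses growth and pluripotency genes such as Hmga2, Ras genes and Lin28, whose protein in turn blocks let-7 maturation. Differentiated tissues, airway epithelium included, hold large amounts of let-7, and several members are carried in EVs.

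The mature 5p sequences are shown first because the family is defined by them, and because the members differ from each other at only a few bases. All 20 mature entries matched a miRNA in RefSeq (GRCm38.p6), the source of the sequences below. Capitals mark the seed, bases 2 to 8, and both genomic copies of let-7a, of let-7c and of let-7f give the same 5p sequence. miR-98-5p, which carries the family's seed under another name, is set beside them.
let-7a-5p: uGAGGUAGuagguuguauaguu
let-7b-5p: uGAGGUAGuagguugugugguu
let-7c-5p: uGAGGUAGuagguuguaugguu
let-7d-5p: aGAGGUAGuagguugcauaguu
let-7e-5p: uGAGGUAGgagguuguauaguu
let-7f-5p: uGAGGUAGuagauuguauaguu
let-7g-5p: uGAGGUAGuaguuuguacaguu
let-7i-5p: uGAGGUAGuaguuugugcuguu
miR-98-5p: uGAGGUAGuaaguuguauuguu

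All 11 mature 5p entries and miR-98-5p shared the seed GAGGUAG. Counted from 1 at the 5′ end, with the base of let-7a-5p first, the differences from let-7a-5p were A17G and A19G in let-7b, A19G in let-7c, U1A and U16C in let-7d, U9G in let-7e, G12A in let-7f, G12U and U18C in let-7g, and G12U, A17G, U18C and A19U in let-7i. With 1 base between let-7a and let-7c, let-7e or let-7f, an error of 1 base in a read can move it from one member to another, which was not tested.

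The hairpins lay at 7 places on autosomes and at 1 on chromosome X of mm9, found by an exact match of the RefSeq hairpins to the genome. Mirlet7a-1 (chr13:48633548-48633641), Mirlet7f-1 (chr13:48633198-48633286) and Mirlet7d (chr13:48631381-48631483) sat together on the minus strand, with 261 and 1714 bases between neighbours. On the plus strand of chromosome 15, Mirlet7c-2 (chr15:85537033-85537127) lay 621 bases from Mirlet7b (chr15:85537749-85537833). Neither cluster overlapped another annotated gene.

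A further 4 hairpins sat beside other miRNAs, all on the plus strand. Mirlet7a-2 (chr9:41344799-41344894) lay in an intron of the lincRNA D230004N17Rik with Mir100 and Mir125b-1, and Mirlet7c-1 (chr16:77599902-77599995) lay 656 bases from Mir99a in an intron of Gm11146, which runs on the other strand. Mirlet7e (chr17:17967316-17967408) was 367 bases from Mir125a, and Mirlet7f-2 (chrX:148346889-148346971) was 785 bases from Mir98 in an intron of Huwe1. The last pair stood alone: Mirlet7g (chr9:106081171-106081258, plus strand) in an intron of Wdr82, and Mirlet7i (chr10:122422696-122422780, minus strand) outside other annotated genes.

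Levels were deposited as RPMMM, a unit in which all miRNA reads of a pool sum to 1000000, so each value is a share of the miRNA reads of its pool and not an amount. The steps between low values gave between 281539 and 860974 miRNA reads per pool, with the lowest depths after 2 ppm O3 (281539 to 300915 reads). No value above 0 lay below about 10 reads, which was between 34.3 and 37.3 RPMMM after 2 ppm O3 and between 11.8 and 18.9 RPMMM in the other pools, so that a 0 means a level below that limit. Shares also move when other miRNAs move: miR-2137 took between 0.0784 and 0.641% of miRNA reads in FA, between 3.23 and 5.397% after 1 ppm O3 and between 18.7 and 20.3% after 2 ppm O3. Entries of 4 other hairpins, miR-5115, miR-5109, miR-5105 and miR-5102, together took between 0.279 and 0.405%, between 2.27 and 5.54%, and between 22.9 and 27.3%. For that reason the let-7 levels at 2 ppm are followed by results under other totals or as ratios within a pool. Levels of other miRNAs and of the marker lists are given with the full total only. The fitted let-7 changes at 1 ppm are given mainly with that total.

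Summed in each pool, the 103 let-7 entries held 23.1, 24.7 and 22.7% of miRNA reads in the FA pools. After 1 ppm O3 they held 22.4, 20.2 and 21.4%. After 2 ppm O3 they held 8.17, 8.54 and 9.84%. More than 1 in 5 miRNA reads in FA EVs thus came from this family, and every pool after 2 ppm O3 lay far below every other pool. The means were 23.5 ± 1.07% in FA, 21.4 ± 1.10% after 1 ppm O3 and 8.85 ± 0.877% after 2 ppm O3 (SD, n = 3 pools each), 2.66-fold lower at 2 ppm than in FA. The 1 ppm pools lay just below the FA pools, without overlap.

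The size of the decrease depended on the total. When miR-2137 was left out of the total, the level after 2 ppm O3 was 0.466 times that in FA, and when these 4 hairpins were left out as well it was 0.682 times. With median-of-ratios scaling, in which the typical miRNA is held level between pools, it was 0.608 times. The highest 2 ppm pool stayed below the lowest FA pool under each of these scalings. After 1 ppm O3 the same ratios were 0.944, 0.982 and 0.961, against 0.908 with the full total, and the 1 ppm pools overlapped the FA pools under each of these scalings. Within a share of miRNA reads, a rise of other miRNAs, fewer vesicles from let-7-rich cells and less let-7 per vesicle cannot be told apart.

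Among the 8 mature 5p sequences, with genomic copies summed, let-7f was the most abundant. It made up 6.34, 5.81 and 5.67% of miRNA reads in FA, 5.39, 5.02 and 5.27% after 1 ppm O3, and 2.27, 2.32 and 2.64% after 2 ppm O3. let-7c made up 4.28, 4.78 and 4.36% in FA, 5.09, 4.46 and 4.66% after 1 ppm O3, and 1.47, 1.57 and 1.85% after 2 ppm O3. let-7a made up 3.57, 3.74 and 3.16% in FA, 3.83, 3.27 and 3.32% after 1 ppm O3, and 1.28, 1.34 and 1.57% after 2 ppm O3. For let-7c and let-7a the FA and 1 ppm pools overlapped, while the 1 ppm pools of let-7f all lay below its FA pools.

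Next came a pair of similar level. let-7g made up 2.51, 3.00 and 2.83% in FA, 2.10, 1.94 and 2.32% after 1 ppm O3, and 0.970, 1.04 and 1.02% after 2 ppm O3. let-7b made up 2.46, 2.82 and 2.53% in FA, 2.40, 2.17 and 2.35% after 1 ppm O3, and 0.842, 0.954 and 1.12% after 2 ppm O3. Both were already lower in every 1 ppm pool than in any FA pool, by a wider margin in let-7g.

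The 3 least abundant members were let-7d, let-7i and let-7e. let-7d made up 1.36, 1.69 and 1.39% in FA, 1.31, 1.30 and 1.32% after 1 ppm O3, and 0.411, 0.409 and 0.548% after 2 ppm O3. let-7i made up 0.696, 0.752 and 0.711% in FA, 0.568, 0.570 and 0.605% after 1 ppm O3, and 0.271, 0.294 and 0.275% after 2 ppm O3. let-7e made up 0.411, 0.410 and 0.413% in FA, 0.330, 0.279 and 0.288% after 1 ppm O3, and 0.0833, 0.0925 and 0.152% after 2 ppm O3. In each of them the exposures did not overlap, and the levels fell in the order of the O3 concentration.

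**Figure D1:**
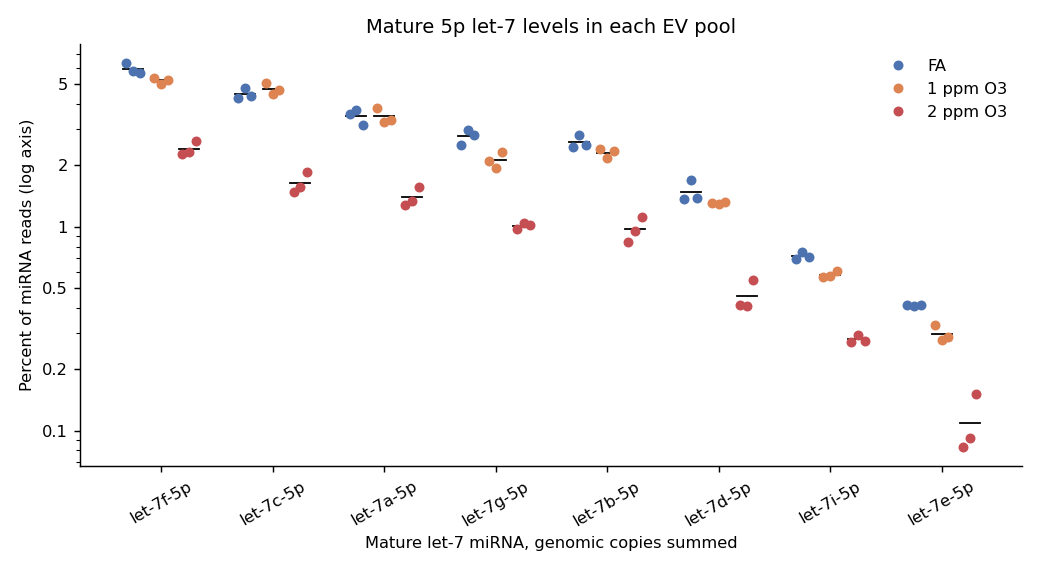
Share of miRNA reads (percent, log axis) of each mature 5p let-7 sequence with its genomic copies summed; points are the 3 pools of each exposure and short lines their means. The 2 ppm O3 pools lie below the FA and 1 ppm pools in all 8 members, and the 1 ppm pools lie below the FA pools in let-7f, let-7g, let-7b, let-7d, let-7i and let-7e.

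The order of abundance in FA was let-7f, let-7c, let-7a, let-7g, let-7b, let-7d, let-7i and let-7e, and of the neighbours in it only let-7g and let-7b overlapped between pools. After 1 ppm O3 the pools of let-7f and let-7c overlapped, as did those of let-7b and let-7g, with let-7b the higher by mean. After 2 ppm O3 the order was that of FA, and overlaps were seen between let-7c and let-7a and between let-7g and let-7b. The mature 5p sequences are of the same length, 22 bases, so that levels can be compared without a correction for length, but differences in how well each is ligated into a library were not measured.

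Each entry was tested with limma on log2(RPMMM + 1) together with the 461 entries of the table whose mean was above 50 RPMMM, and was called changed where the adjusted p was under 0.05 and the level differed 2-fold or more. Of the let-7 entries, 47 passed this filter: all 11 mature 5p entries, 7 of 9 mature 3p entries, 28 of 65 isomiRs of the 5p arm and 1 of 18 isomiRs of the 3p arm. The other 56 had means between 1.58 and 45.5 RPMMM, and 49 of them were listed at 0 in all 2 ppm pools. An entry could pass the filter through its FA level alone, so the counts below describe the tested entries and the mature 5p entries, all far above the filter in every pool, carry the comparison.

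After 2 ppm O3, 33 of the 47 tested let-7 entries were called lower than in FA and 0 higher, where 29.3% of all 461 entries were called lower and 14.3% higher. The 33 were all 11 mature 5p entries, 5 of the 7 mature 3p entries and 17 isomiRs of the 5p arm. The median log2 fold change was -1.47 over the let-7 entries tested and -0.83 over all entries tested. The median of the table was thus also below 0 with the full total, and that of the let-7 entries was lower. Of the 33, 27 were above 0 in every 2 ppm pool, 4 were at 0 in 1 or 2 of these pools and 2 were at 0 in all 3.

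Changes of the mature 5p entries after 2 ppm O3 spanned log2 fold changes from -1.30 to -1.96. The smallest was that of let-7f-1-5p and let-7f-2-5p, both at -1.30 with an SE of 0.09 (limma adjusted p = 2.14e-06 for each). let-7a-1-5p and let-7a-2-5p followed at -1.32 (SE 0.11, limma adjusted p = 8.10e-06 for each). Copies of 1 sequence share reads, so that the agreement of their values is no second measurement.

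let-7i-5p changed by -1.36 (SE 0.09, limma adjusted p = 1.70e-06) and let-7b-5p by -1.43 (SE 0.11, limma adjusted p = 5.08e-06) on the log2 scale. let-7c-1-5p and let-7c-2-5p changed by -1.45 and -1.47 (limma adjusted p = 2.69e-06 and 3.15e-06), and let-7g-5p by -1.46 (SE 0.10, limma adjusted p = 2.14e-06). These 5 entries lay close together. Further down stood let-7d-5p at -1.71 (SE 0.13, limma adjusted p = 4.58e-06) and let-7e-5p at -1.96 (SE 0.20, limma adjusted p = 3.09e-05), which were 3.25-fold and 3.77-fold lower by their means.

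All 11 mature 5p entries kept a limma adjusted p below 0.05 and a negative change under each of the 3 other scalings, but most lost the fold change of 2. With miR-2137 out of the total, 9 of the 11 were called and the changes ran from -0.99 to -1.65. With median-of-ratios scaling 2 were called, let-7d-5p at -1.01 and let-7e-5p at -1.27, within a range of -0.60 to -1.27. With the 4 hairpins named above also out of the total, only let-7e-5p was called, at -1.10 (SE 0.17, limma adjusted p = 9.29e-04), and the range was -0.44 to -1.10. The median over all entries tested moved from -0.83 to -0.51, -0.08 and 0.05 in the same order of scalings, and the let-7 median from -1.47 to -1.16, -0.76 and -0.61. Each scaling multiplies all entries of a pool by 1 factor, so both medians move together and the margin between them is no test of the scaling.

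**Figure D2:**
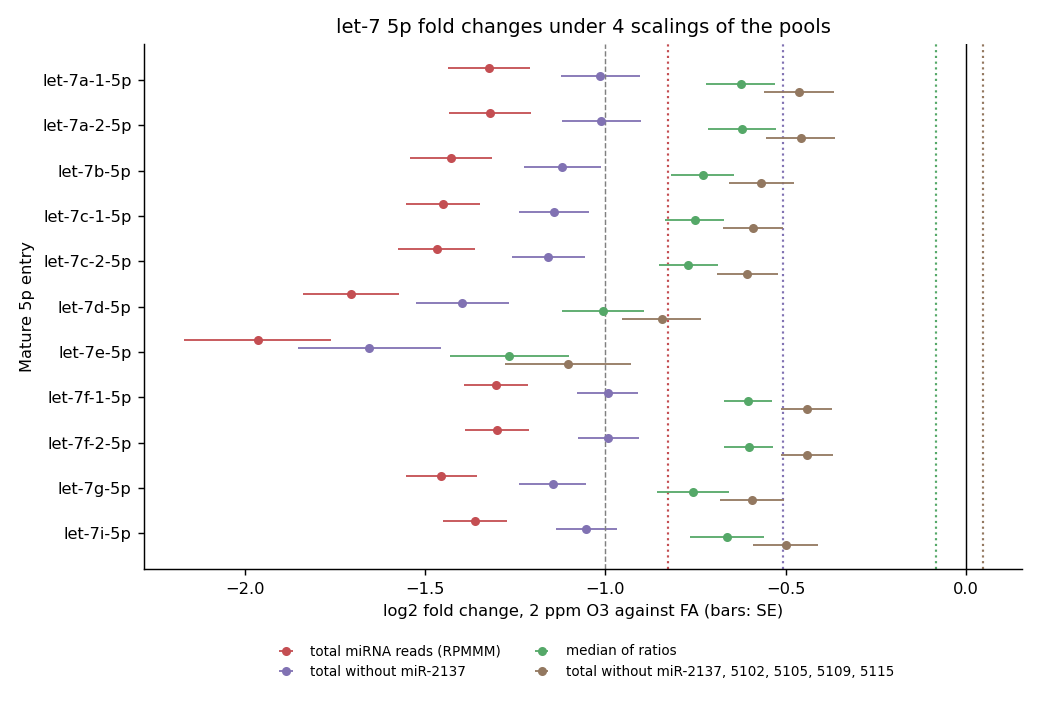
log2 fold change of each mature 5p let-7 entry, 2 ppm O3 against FA, with SE bars, under 4 scalings of the pools; dotted lines give the median of all tested entries in the same colour and the dashed line a 2-fold decrease. Each scaling shifts all entries together; let-7e-5p and let-7d-5p have the most negative changes, and under 2 scalings most entries lie right of the dashed line.

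Between the O3 concentrations, 27 of the 47 entries were called lower at 2 ppm than at 1 ppm and 0 higher, against 22.3% and 11.3% of all entries. All 27 were among the 33 called against FA, 81.8% of those, and both comparisons share the 2 ppm pools. The 11 mature 5p entries were all called, with log2 changes from -1.05 in let-7i-5p to -1.55 in let-7c-1-5p. Among mature 3p entries only let-7d-3p was called here.

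After 1 ppm O3, 1 of the 47 let-7 entries was called lower than in FA and 0 higher, against 2.82% and 10.4% of all entries. The called entry was let-7b-3p, described below. Smaller decreases passed the test but not the fold limit in let-7g-5p, at -0.39 (SE 0.10, limma adjusted p = 0.0241), and let-7i-5p, at -0.31 (SE 0.09, limma adjusted p = 0.0395). let-7e-5p was at -0.46 with a limma adjusted p of 0.178.

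A rank test without a model took all 27 pairings of pools that had breathed different O3 concentrations and counted, for each entry, in how many the pool at the higher concentration had the lower level. All 27 pairs fell in 9 of the 47 tested let-7 entries, where 6.07% of all entries did so. They were let-7b-5p, let-7d-5p, let-7e-5p, let-7f-1-5p, let-7f-2-5p, let-7g-5p and let-7i-5p, and let-7a-1-3p with its identical copy let-7c-2-3p (two-sided exact permutation test over all arrangements of the pools, p = 0.00119, which is the lowest that 3 pools per exposure can give, adjusted p = 0.00704). let-7a-5p and let-7c-5p were not among them, with 22 and 20 pairs falling for each of their copies. let-7e-5p, let-7g-5p and let-7i-5p kept all 27 pairs under each of the 3 other scalings.

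The make-up of the family was next compared, as each member's part of the mature 5p let-7 reads, which does not depend on the other miRNAs of a pool. let-7f held 27.2 ± 2.04% in FA, 26.1 ± 0.392% after 1 ppm O3 and 29.2 ± 0.560% after 2 ppm O3 (SD, n = 3 pools). let-7b held 11.9, 11.5 and 11.7% by mean, and the pools of let-7f and of let-7b overlapped between FA and 2 ppm. let-7a held 16.5, 16.3 and 14.996% in FA, 18.2, 17.2 and 16.5% after 1 ppm O3 and 16.8, 16.7 and 17.1% after 2 ppm O3, with all 2 ppm pools above the FA pools.

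let-7c held its highest parts at 1 ppm. It made up 19.8, 20.8 and 20.7% in FA, 24.2, 23.5 and 23.1% after 1 ppm O3, and 19.4, 19.6 and 20.1% after 2 ppm O3. let-7g went the other way at 1 ppm, with 11.6, 13.0 and 13.4% in FA, 9.99, 10.2 and 11.5% after 1 ppm O3, and 12.8, 12.9 and 11.1% after 2 ppm O3. let-7i held 3.22, 3.27 and 3.38% in FA, 2.70, 3.00 and 3.01% after 1 ppm O3, and 3.57, 3.66 and 3.00% after 2 ppm O3. The 1 ppm pools of these members stood apart from their FA pools. At 2 ppm let-7c overlapped its FA pools, and so did let-7g apart from 2 ppm pool 3, which lay among the 1 ppm pools. 2 ppm pool 3 of let-7i did so too, while its other 2 ppm pools lay above FA.

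let-7d and let-7e held smaller parts of the family at 2 ppm. let-7d made up 6.30, 7.35 and 6.59% in FA, 6.24, 6.83 and 6.55% after 1 ppm O3, and 5.41, 5.10 and 5.97% after 2 ppm O3. let-7e held 1.90, 1.78 and 1.96% in FA, 1.57, 1.47 and 1.43% after 1 ppm O3, and 1.10, 1.152 and 1.65% after 2 ppm O3. let-7d was apart from FA only at 2 ppm, while let-7e was below FA in all 6 O3 pools and its 2 ppm pool 3 lay above the 1 ppm pools.

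**Figure D3:**
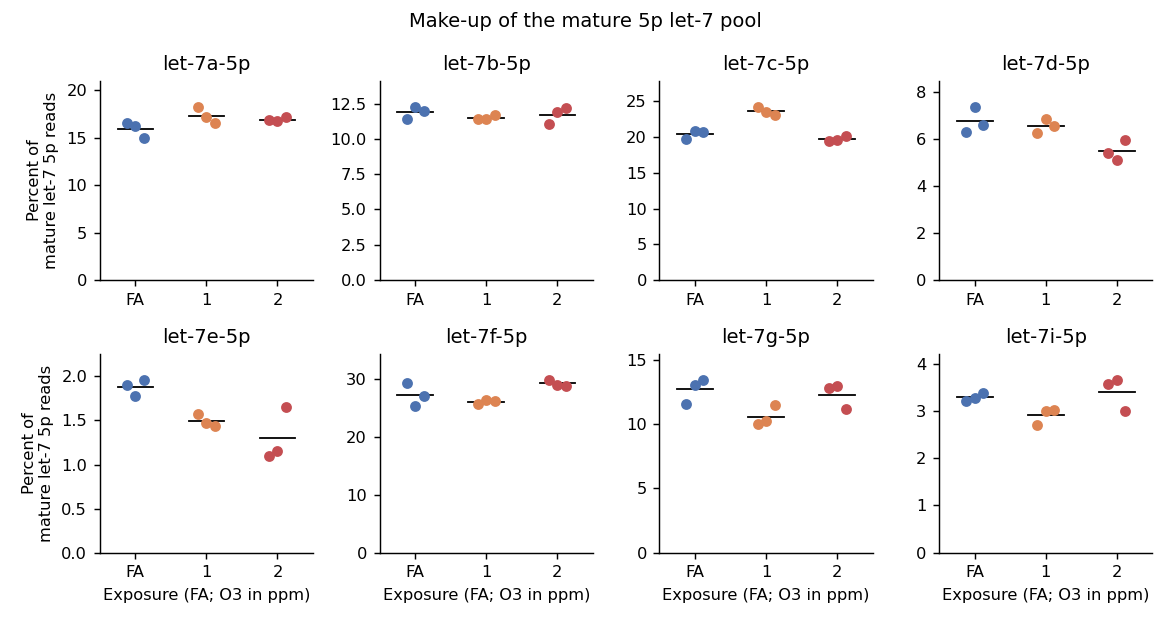
Percent of mature 5p let-7 reads held by each member, genomic copies summed, in FA and after 1 or 2 ppm O3; points are pools and lines means, and each panel has its own axis from 0. The 2 ppm pools of let-7d and let-7e lie below their FA pools, and the 1 ppm pools of let-7c lie above its other pools.

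The same was tested as the log2 ratio of each entry to let-7a-5p in the same pool, fitted with limma over 459 entries and called at an adjusted p below 0.05. After 2 ppm O3, 5 of the 45 other let-7 entries were called lower relative to let-7a-5p and 1 higher, against 3.92% and 33.6% of all entries. The median log2 change relative to let-7a-5p was 0.50 over all entries and -0.15 over the let-7 entries. let-7e-5p was 23.0, 21.9 and 26.2% of the let-7a-5p level in FA, 17.2, 17.0 and 17.4% after 1 ppm O3 and 13.0, 13.8 and 19.3% after 2 ppm O3, with a log2 change of -0.64 at 2 ppm (SE 0.17, limma adjusted p = 0.0112). For let-7d-5p these were 76.3, 90.4 and 87.9%, then 68.5, 79.3 and 79.3%, then 64.2, 61.0 and 69.7%, with a log2 change of -0.38 (SE 0.12, limma adjusted p = 0.0265).

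The call of let-7e-5p was lost without 2 ppm pool 1 (limma adjusted p = 0.0526) and that of let-7d-5p without any one of FA pools 2 and 3 and 2 ppm pools 1 and 2 (limma adjusted p between 0.0680 and 0.0949). Of the remaining calls, 3 were isomiRs starting 2 bases further 3′, let-7a-1-5p, let-7a-2-5p and let-7d-5p, which were at 0 in at least 2 of the 2 ppm pools. Those of the let-7a copies share reads. The entry called higher was let-7f-1-3p, listed at 0 in 2 FA pools. At 1 ppm, the same ratio was not called for let-7c-1-5p (0.10, limma adjusted p = 0.649), let-7c-2-5p (0.08, limma adjusted p = 0.744), let-7g-5p (limma adjusted p = 0.0945) or let-7i-5p (limma adjusted p = 0.196), whose parts of the family stood apart there. Nor was it called at 1 ppm for let-7e-5p, whose part of the family also stood apart. The 1 of 45 let-7 entries called at 1 ppm was let-7b-3p, which was lower (log2 change -1.60, SE 0.41, limma adjusted p = 0.0278). Of all 459 entries, 17 were called lower there. With let-7f-5p as the reference at 2 ppm, 4 entries were called lower and 0 higher.

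Mature 3p entries, from the hairpin arm that is mostly discarded when let-7 is processed, held 3.41, 4.09 and 4.28% of the mature let-7 reads in FA, 3.40, 3.40 and 3.04% after 1 ppm O3 and 4.43, 3.56 and 4.20% after 2 ppm O3. Unlike the 5p arm, they do not share one seed. Sequences of the 3p arms that differ in their values below are given here, from RefSeq, with bases 2 to 8 in capitals.
let-7d-3p: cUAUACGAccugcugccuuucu
let-7a-1-3p: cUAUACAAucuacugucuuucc
let-7b-3p: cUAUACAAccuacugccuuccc
let-7f-1-3p: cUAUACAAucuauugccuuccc
let-7f-2-3p: cUAUACAGucuacugucuuuc

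The reads of let-7a-1-3p and let-7c-2-3p are split over 2 rows. Summed, these held more than let-7d-3p except in 1 ppm pools 2 and 3. As a single row, let-7d-3p had the highest 3p level by mean. Its level was 3162, 3212 and 3089 RPMMM in FA, 3343, 3185 and 3238 RPMMM after 1 ppm O3, and 1299, 1258 and 1176 RPMMM after 2 ppm O3, a log2 change of -1.34 at 2 ppm (SE 0.10, limma adjusted p = 3.26e-06). It was called lower in both comparisons with 2 ppm, and its FA and 1 ppm pools overlapped. Of the 5 mature 3p entries called lower at 2 ppm, 4 were still called with miR-2137 out of the total, all but let-7e-3p, and 0 were called under the remaining scalings.

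let-7a-1-3p and let-7c-2-3p have the same sequence and the same value in each pool. That value was 1736, 2661 and 2647 RPMMM in FA, 1717, 1387 and 1257 RPMMM after 1 ppm O3, and 902, 643 and 1176 RPMMM after 2 ppm O3. The log2 change was -0.68 at 1 ppm (limma adjusted p = 0.116) and -1.39 at 2 ppm (SE 0.25, limma adjusted p = 0.00129), where it was called lower. Between the O3 concentrations its log2 change was -0.71, under the fold limit, and its 27 falling pairs were 21 with median-of-ratios scaling.

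let-7b-3p was the single let-7 entry called at 1 ppm. It stood at 487, 294 and 388 RPMMM in FA, 135, 180 and 80.1 RPMMM after 1 ppm O3, and 93.0, 141.7 and 124 RPMMM after 2 ppm O3. The log2 change was -1.60 at 1 ppm (SE 0.39, limma adjusted p = 0.0208) and -1.69 at 2 ppm (SE 0.39, limma adjusted p = 0.00530), and the 2 ppm pools lay within the range of the 1 ppm pools. The 1 ppm call did not hold without FA pool 1 or 3 or without 1 ppm pool 1 or 3, each left out alone (limma adjusted p between 0.0537 and 0.0718).

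let-7e-3p was at 277, 451.3 and 177 RPMMM in FA, 171, 209 and 138 RPMMM after 1 ppm O3, and 153, 41.5 and 121 RPMMM after 2 ppm O3, called lower at 2 ppm at -1.61 (SE 0.54, limma adjusted p = 0.0317). Its call was lost without FA pool 1 or 2 or without 2 ppm pool 2 (limma adjusted p between 0.0695 and 0.115). let-7c-1-3p, at 157, 301 and 246 RPMMM in FA, 196, 133.3 and 161 RPMMM after 1 ppm O3 and 86.4, 131 and 149 RPMMM after 2 ppm O3, was not called (log2 change -0.92, limma adjusted p = 0.0673). It was called without FA pool 1 (limma adjusted p = 0.0400).

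The 3p entries of the let-7f copies were listed in turn. let-7f-1-3p was at 0, 210 and 0 RPMMM in FA, 128, 211 and 171 RPMMM after 1 ppm O3, and 86.4, 51.8 and 107 RPMMM after 2 ppm O3. let-7f-2-3p was at 40.6, 0 and 212 RPMMM in FA and at 0 in all 6 O3 pools. No pool listed both, and in FA each pool that listed one had the other at 0, although the sequences above differ at several bases. Their sum was 40.6, 210 and 212 RPMMM in FA, 128, 211 and 171 RPMMM after 1 ppm O3 and 86.4, 51.8 and 107 RPMMM after 2 ppm O3, so that the FA pools spanned the levels of both O3 exposures. let-7f-1-3p was not called in any comparison of levels, and without FA pool 2, the one FA pool that listed it, its fitted change at 2 ppm was 6.31 (limma adjusted p = 4.34e-04), against FA pools that were all at 0. let-7i-3p was above 0 in FA pools 1 and 2 (36.3 and 28.4 RPMMM) and in 2 ppm pool 2 (51.8 RPMMM) and was below the filter, as was let-7f-2-3p.

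**Figure D4:**
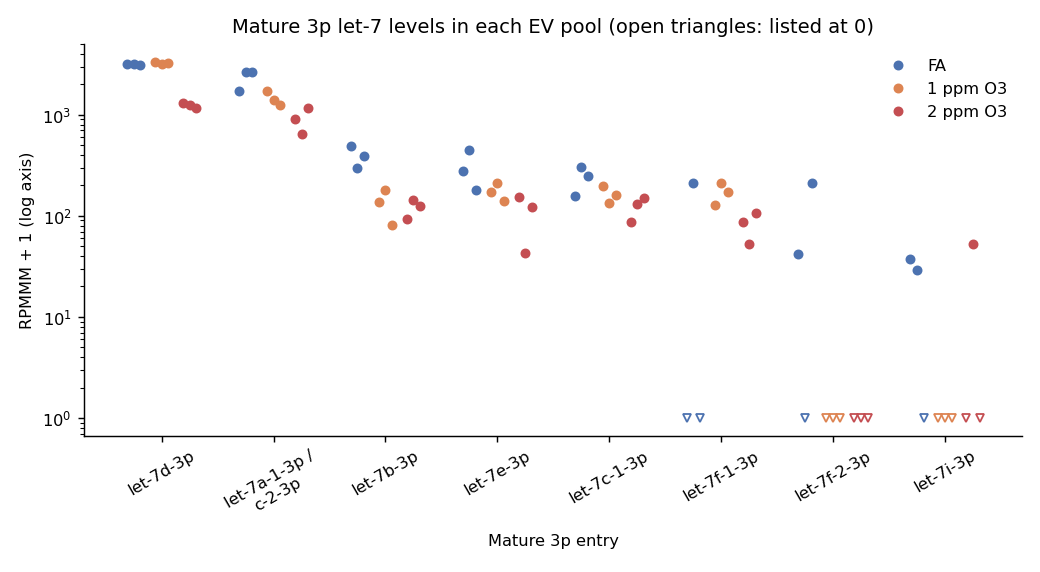
Level of each mature 3p let-7 entry in RPMMM plus 1 (log axis) in every pool; open triangles at the bottom are pools listed at 0. let-7b-3p is lower in both O3 exposures than in FA, let-7d-3p is lower only after 2 ppm O3, and let-7f-1-3p and let-7f-2-3p are never listed in the same pool.

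The ratio of 3p to 5p of 1 hairpin is independent of the total as well, and was fitted over the 60 hairpins with both arms above the filter. Copies share reads, so the ratios of let-7a-1, let-7c-1, let-7c-2 and let-7f-1 are not those of 1 hairpin alone. After 2 ppm O3, 0 of the 7 let-7 hairpins tested were called, where 5.0% of all hairpins were. At 1 ppm, 1 of 7 was called, against 8.33% of all. That was let-7b, whose 3p level was 1.98, 1.04 and 1.54% of its 5p level in FA, 0.561, 0.831 and 0.342% after 1 ppm O3 and 1.11, 1.48 and 1.11% after 2 ppm O3 (log2 change -1.43 at 1 ppm, SE 0.38, limma adjusted p = 0.0440). The 2 ppm pools lay within the FA range. The call was lost without any one pool except FA pool 2 and 1 ppm pool 2 (limma adjusted p between 0.0546 and 0.156).

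Among the other hairpins, let-7d had the highest ratio, 23.2, 19.0 and 22.2% in FA, 25.5, 24.5 and 24.6% after 1 ppm O3 and 31.6, 30.7 and 21.5% after 2 ppm O3 (limma adjusted p = 0.241 at 2 ppm). let-7c-1 was at 0.760, 1.30 and 1.16% in FA and 1.201, 1.71 and 1.66% after 2 ppm O3 (limma adjusted p = 0.266). In both, the FA and 2 ppm pools overlapped. The arm fit had little power: on simulated data, with a 2-fold limit that the fit here did not have, it called 5 of 20 hairpins changed 4-fold.

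isomiRs were a small part of the family, 3.15, 3.04 and 3.16% of all let-7 reads in FA, 2.90, 2.73 and 3.06% after 1 ppm O3 and 2.64, 2.59 and 2.61% after 2 ppm O3. A read that starts at another base has another seed. For let-7g, which has 1 genomic copy and the highest single isomiR row (the copies of let-7f and of let-7c hold more when summed), the forms starting 1 base further 5′, at the mature start, 1 base and 2 bases further 3′ are printed with their bases 2 to 8 in capitals, taken from the RefSeq hairpin and with the 3′ end of the mature form, since the entry names give the 5′ end alone.
let-7g-5p minus 1: cUGAGGUAguaguuuguacaguu
let-7g-5p: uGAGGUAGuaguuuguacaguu
let-7g-5p plus 1: gAGGUAGUaguuuguacaguu
let-7g-5p plus 2: aGGUAGUAguuuguacaguu

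The form starting 1 base further 3′ was the highest isomiR of each 5p arm. In FA it was between 0.617% of the mature level, in let-7e, and 2.40%, in let-7g, and after 2 ppm O3 it was 2.17% in let-7g and was listed at 0 in let-7e, whose FA mean of 25.4 RPMMM was below the limit of the 2 ppm pools. In RPMMM the let-7g form went from a mean of 666 in FA to 546 after 1 ppm O3 and 219 after 2 ppm O3. Of the 3p arms, let-7d-3p had the highest such form, at 7.58% of the mature level in FA, 5.91% after 1 ppm O3 and 12.0% after 2 ppm O3 by mean, from 5.08, 6.12 and 11.7% in the FA pools and 7.16, 9.34 and 20.2% in the 2 ppm pools (limma adjusted p = 0.583). The pools of these exposures overlapped.

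The highest isomiRs of the other 3p arms had means of at most 30.03 RPMMM over the 9 pools, below the filter. Of let-7a-1-3p and let-7c-2-3p it was the form 1 base further 3′, at a mean of 64.1 RPMMM in FA, 25.9 RPMMM after 1 ppm O3 and 0 after 2 ppm O3. Of let-7b-3p and let-7c-1-3p it was the same form, at means of 28.6 and 8.19 RPMMM in FA and 0 after 2 ppm O3. let-7g-3p was represented by this form alone, at means of 33.4, 12.2 and 24.2 RPMMM in FA, after 1 ppm and after 2 ppm O3. let-7e-3p and let-7f-1-3p had isomiRs only after 1 ppm O3, with means of 11.4 and 7.21 RPMMM there.

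By the shift of the 5′ end, the form 1 base further 3′ made up between 1.49 and 1.70% of all let-7 5p reads in FA, between 1.37 and 1.77% after 1 ppm O3 and between 1.38 and 1.62% after 2 ppm O3. The form 2 bases further 3′ made up between 0.608 and 0.629%, between 0.467 and 0.649%, and between 0.433 and 0.601%. Shifts of 3, 4 and 5 bases went from means of 0.204, 0.0943 and 0.0435% in FA to 0.111, 0.0156 and 0% after 2 ppm O3. The common shift kept its share, and the shares of the rarer forms starting further 3′ were lower at 2 ppm. There, 8 of 11, 9 of 10 and 7 of 7 entries with shifts of 3, 4 and 5 bases were at 0 in all pools, and the limit below which a value is listed at 0 was 34.3 RPMMM or more in these pools, so a loss of rare forms and their fall below the limit cannot be told apart.

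**Figure D5:**
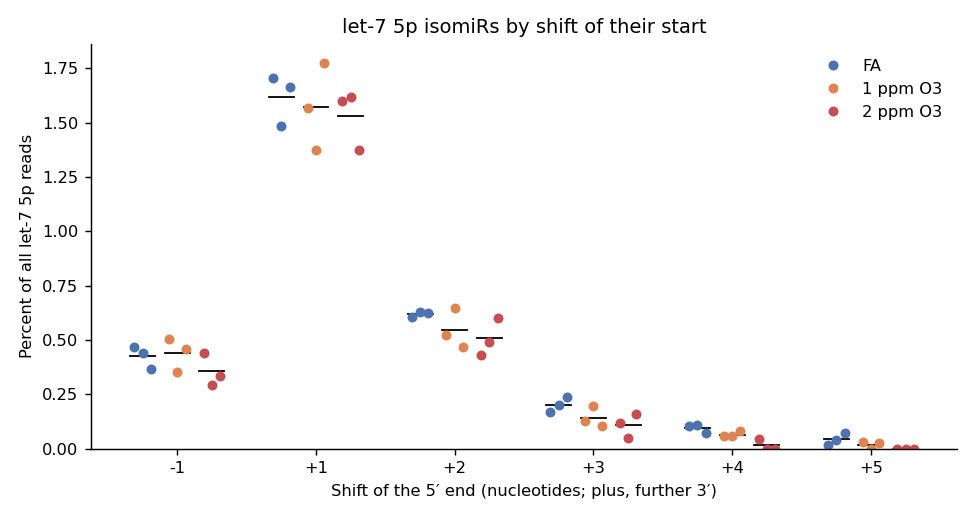
Percent of all let-7 5p reads by the shift of the 5′ end in bases, negative for starts further 5′ and positive for starts further 3′; points are pools and lines means. The pools of all exposures overlap at a shift of 1 base, and shifts of 4 and 5 bases are near 0 after 2 ppm O3.

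Relative to the mature form of their own arm, 2 of 29 let-7 isomiRs were called lower after 2 ppm O3 in a limma fit over 219 isomiRs, where 4.57% of all were called lower. Both were the form of let-7a starting 2 bases further 3′, 1 from each copy. These 2 entries share reads, differed only in FA pool 1 and are not separate measurements. They were at 0 in all 2 ppm pools, against a mean of 77.4 and 79.3 RPMMM in FA, which makes the level at least 2.07-fold and 2.13-fold lower, less than the decrease of mature let-7a itself, from a mean of 3.49 to 1.40% of miRNA reads. With 10 in place of 1 added before the log, neither was called (limma adjusted p = 0.157 and 0.134). As levels, 17 isomiRs were called lower at 2 ppm than in FA, with log2 changes from -1.33 to -6.25, and the 11 of them that were above 0 in all 2 ppm pools lay between -1.33 and -1.73.

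miR-98 and the miRNAs from the hairpins beside let-7 were listed as 12 mature entries, of which 11 were tested and 6 were called lower after 2 ppm O3, against 29.3% of all entries, with a median log2 change of -1.77 against -0.83. The entries of miR-125b-1 and miR-125b-2 among the 6 share reads. miR-98-5p, with the let-7 seed and next to let-7f-2, was at 1651, 1243 and 1544 RPMMM in FA, 2129, 1588 and 1554 RPMMM after 1 ppm O3 and 645, 715 and 457 RPMMM after 2 ppm O3 (log2 change -1.30, SE 0.21, limma adjusted p = 6.61e-04). Its change at 2 ppm was that of let-7f-2-5p to within 1 SE.

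Near let-7a-2, miR-100-5p was at 400, 926 and 1038 RPMMM in FA and 211, 131 and 158 RPMMM after 2 ppm O3, and miR-125b-1-5p at 1149, 2172 and 1552 RPMMM and then 418, 299.7 and 563 RPMMM. Their log2 changes were -2.15 and -1.92 (limma adjusted p = 0.00200 and 4.75e-04). Next to let-7c-1, miR-99a-5p was at 7561, 11418 and 10842 RPMMM in FA, 7219, 6805 and 6655 RPMMM after 1 ppm O3 and 3032, 2733 and 2843 RPMMM after 2 ppm O3 (log2 change -1.77, limma adjusted p = 7.35e-06). miR-125b-2-5p, nearly the same in each pool as miR-125b-1-5p, with which it shares its sequence and reads, changed by -1.96.

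The miRNAs beside let-7e did not move alike. miR-125a-5p was at 13615, 19319 and 16668 RPMMM in FA, 12704, 12780 and 11309 RPMMM after 1 ppm O3 and 5035, 4101 and 5268 RPMMM after 2 ppm O3, a log2 change of -1.78 (SE 0.14, limma adjusted p = 5.89e-06). miR-99b-5p, of the same cluster by name, was at 4791, 4083 and 3882 RPMMM in FA, 4969, 4433 and 4924 RPMMM after 1 ppm O3 and 2602, 2584 and 2582 RPMMM after 2 ppm O3. Its log2 change of -0.71 (SE 0.11, limma adjusted p = 4.61e-04) was under the fold limit, beside -1.96 for let-7e-5p. Of the 3p arms, miR-125a-3p, miR-125b-1-3p, miR-125b-2-3p and miR-99b-3p were tested and not called, with limma adjusted p between 0.135 and 0.661 at 2 ppm. miR-98-3p was below the filter.

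Other abundant families were set beside let-7. The 3 mature 5p entries of miR-26 held between 8.74 and 9.49% of miRNA reads in FA, between 9.08 and 10.1% after 1 ppm O3 and between 4.06 and 4.52% after 2 ppm O3. The 6 mature 5p entries of miR-30 held between 10.1 and 12.9%, between 11.9 and 12.9%, and between 6.01 and 6.58%. At 2 ppm, 3 of 3 and 3 of 6 were called lower, with median log2 changes of -1.06 and -1.08, beside 11 of 11 and -1.43 for the mature 5p let-7 entries and 29.3% and -0.83 for all entries tested. All of these families lost share at 2 ppm, and let-7 the most by these medians.

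Of 200 other mature entries, those most like the summed let-7 level over the 9 pools were miR-26b-5p (Pearson r = 0.981), miR-200c-3p (r = 0.981), miR-26a-5p (r = 0.979), miR-450a-5p (r = 0.978) and miR-652-3p (r = 0.977). These are descriptions over 9 pools, which share the total of each pool and the lower depth at 2 ppm. miR-200c-3p, an epithelial miRNA, went from a mean of 13702 RPMMM in FA to 11597 RPMMM after 1 ppm O3 and 6064 RPMMM after 2 ppm O3, and miR-450a-5p was listed at 0 in all 2 ppm pools.

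Markers of cells that can shed vesicles into BALF moved in different ways. The epithelial list (miR-200a, miR-200b, miR-200c, miR-141 and miR-429, 5 of 5 present) summed to between 64849 and 69404 RPMMM in FA, between 51325 and 56129 RPMMM after 1 ppm O3 and between 26265 and 30242 RPMMM after 2 ppm O3, 0.417 times FA beside 0.376 times for let-7. The leukocyte list (miR-142, miR-223, miR-150 and miR-342, 4 of 4 present, with miR-150 at 0 in FA and after 2 ppm O3) was between 2319 and 3516, between 2688 and 3356, and between 1654 and 2000 RPMMM. Its mean at 2 ppm was 0.643 times FA. The erythrocyte list (miR-451, miR-144 and miR-486, 3 of 3 present) was between 884 and 1822 RPMMM in FA and between 150 and 343 RPMMM after 1 ppm O3. After 2 ppm O3 it was between 158 and 948 RPMMM, with miR-144 at 0 in all O3 pools. Its mean at 2 ppm was 0.398 times FA, also beside 0.376 times for let-7.

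Lists for ciliated cells (4 of 5 present), endothelium (miR-126, 1 of 1) and smooth muscle (2 of 2) were at 0.935, 4.38 and 0.781 times FA after 2 ppm O3. The ciliated list was between 11050 and 16603 RPMMM in FA, between 5984 and 10677 RPMMM after 1 ppm O3 and between 11857 and 13778 RPMMM after 2 ppm O3, and its members differed: miR-34b went from a mean of 5868 RPMMM in FA to 6958 RPMMM at 2 ppm, and miR-449a from 453 to 116 RPMMM. The striated muscle list (3 of 4 present) was between 235 and 6029 RPMMM in FA and at most 179 RPMMM after 2 ppm O3. Whether these cell types shed the vesicles sequenced here, and their part in the let-7 levels, was not tested.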

How the data were processed

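EV RNA from pooled BALF was sequenced in 9 samples. The authors prepared small RNA libraries with a NEXTflex kit, trimmed adapters, aligned reads to mm9 and counted miRNAs and isomiRs with miRquant 2.0, according to the study's methods. The values deposited by the authors are RPMMM, a form of RPM in which the reads mapped to miRNAs of a pool sum to 1000000, in 1 column per pool. Alternatives tried were other added constants, filters, totals and scalings, reference entries, variance models and the omission of each pool. Values of genomic copies fall on fractions of a read, as when a read is shared among copies, so copies were summed for a member's level. The entry suffix was read as the shift of the 5′ end, in the usual sense of this tool.

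From the deposited RPM values, a linear model with 1 mean per exposure and a variance trend was fitted to log2(RPMMM + 1) by limma 3.58.1 (R 4.3.3). All 461 entries with a mean above 50 RPMMM entered, and the Benjamini-Hochberg adjustment ran over all of them. Fold changes are on this scale, which understates those of low entries listed above the limit in every pool. For an entry below the limit in some pools, the fitted change can instead be overstated, since its level there is known only to lie under that limit. Ratios to let-7a-5p, to the mature arm and between arms were fitted likewise, without a fold limit. The labels name pools and no other replicates, so p-values rest on the spread between pools within exposures. That spread was estimated over all 9 pools together and moderated across entries. No column lacked a sample.

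The depth was estimated from the steps between low values: between 68.5 and 83.4% of low values lay on whole steps (tolerance 0.0056 RPMMM), too few to recover counts. On simulated data with 200 of 461 entries changed 4-fold, the level fit called 151 in the right direction and 1 unchanged entry, and 115 of 115 with a low spread. The isomiR fit called 21 of 40 among 219 and the fit relative to let-7a-5p 137 of 200 among 459. The arm fit called 5 of 20 among 60 and failed the criterion set first, that 80% of low-spread changes be called. It was then judged by its mean estimate and its false calls, of which there were 0. All simulated calls also needed a 2-fold change. The ratio fits to the data had no such limit, so these counts do not give their rate of false calls.

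Mature and hairpin sequences came from RefSeq (GRCm38.p6), and hairpins were placed by exact match to mm9, with genes from its GENCODE annotation. Mir99b and Mir125b-2 were not placed here. Every mature let-7 entry is named, identical copies once, with the highest isomiR of each arm, miR-98, cluster neighbours, miR-26, miR-30 and the 5 entries most like summed let-7; isomiRs singled out beyond these were chosen after their values were seen. The members, lists and alternatives were chosen with earlier results of these data known. Python 3.11.15, numpy 2.4.6, pandas 2.3.3, scipy 1.17.1 and matplotlib 3.10.9 were used. Only miRNA entries were analysed.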

Additional observations from a re-analysis of the deposited data

How the results depend on the processing

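The count of let-7 entries called lower after 2 ppm O3 against FA (33) was 4 with median-of-ratios scaling, 4 with miR-2137 and the 4 hairpins set beside it in the report out of the total, 14 of 14 with a filter at a mean of 500 RPMMM and 12 of 14 with each mature miRNA once, and lay between 29 and 34 with any one pool left out. Against 1 ppm O3 (27), these settings gave 0, 2, 12 and 9, miR-2137 alone out of the total gave 17, and leaving out a pool gave 20 to 25. At 1 ppm against FA (1), the count was 0 with no filter or the filter at 500 RPMMM, and 0 to 2 with a pool left out. Relative to let-7a-5p (6), adding 10 before the log gave 3, and leaving out a pool 3 to 5, with 3 without FA pool 3 or 2 ppm pool 2. For isomiR ratios (2), adding 10 or keeping isomiRs above 200 RPMMM gave 0, and leaving out a pool 0 (without FA pool 3) to 5 (without 2 ppm pool 1). For arm ratios (0), adding 10 gave 1, and leaving out a pool 0 or 1 (without FA pool 2). Entries with all 27 pairs falling (9) numbered 4, 4 and 3 under median-of-ratios scaling, without miR-2137 and without all 5 hairpins. The summed let-7 level at 2 ppm (0.376 times FA) was 0.608, 0.466 and 0.682 times in that order and 0.355 to 0.391 with a pool left out; at 1 ppm (0.908) the first and last were 0.961 and 0.982, and 0.885 to 0.932 with a pool left out. The log2 change of let-7g-5p between the O3 concentrations fell just under the fold limit without 1 ppm pool 3. The causes of these shifts were not tested, beyond the fewer entries that a stricter filter or single copies leave. Over all entries, 135 were called lower and 66 higher at 2 ppm, and 33 and 87, 97 and 76, and 28 and 98 under the 3 scalings in the same order. No tested mature let-7 entry changed sign in its change at 2 ppm against FA. The changes of miR-98, the cluster neighbours, miR-26 and miR-30 were not followed under the other settings. No paired analysis was possible because the pools carry no replicate numbers of their own. Depth limited the isomiRs most, since values below about 10 reads are listed at 0 and the 2 ppm pools were the shallowest.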
